A study of Mus musculus with 16 samples.

Results

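The DEX by TNF interaction asked, for each gene of sorted mouse Paneth cells, whether the response to TNF was of another size when DEX had been given before it. All 16 libraries of the series enter this comparison, in 4 groups of 4, namely PBS+PBS and DEX+PBS without TNF, and PBS+TNF and DEX+TNF with it. Each mouse received PBS or DEX as the first injection and PBS or TNF as the second injection 1 hour later, and was sampled 3 hours after the second injection. The abbreviation DEX, which commonly stands for the synthetic glucocorticoid dexamethasone, is not spelled out in the sources used here. The mice were C57BL/6J, the Paneth cells were purified from the small intestine by flow sorting, and the ages, sexes and doses were not given in the labels used here. Per the study's methods the sorted cells came from individual mice, so each library was taken as 1 mouse.

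The value described below is the log2 TNF effect after DEX (DEX+TNF over DEX+PBS) minus the log2 TNF effect without DEX (PBS+TNF over PBS+PBS). For a gene raised by TNF, an interaction below 0 means a smaller rise after DEX. For a gene lowered by TNF, an interaction above 0 means a smaller fall. Of 55414 genes in the table, 11809 passed a filter on low counts and were tested. Gene levels are CPM, read counts relative to the library total, scaled with TMM factors that correct for libraries in which a few genes take much of the reads.

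Paneth cells sit at the base of the small intestinal crypt, secrete alpha-defensins and lysozyme, and provide Wnt and EGF signals to the neighbouring stem cells. TNF binds TNFR1 and activates the IKK kinases, which release the transcription factor NF-kB from its IkB inhibitors. NF-kB then raises chemokines, adhesion molecules and its own inhibitors, while interferon signals acting through STAT and IRF factors raise antiviral genes, guanylate-binding proteins and antigen presentation. Glucocorticoids bind the glucocorticoid receptor, which raises genes such as Tsc22d3 and Fkbp5 and is known to restrain NF-kB and interferon transcription in many cells.

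The 4 DEX+TNF libraries were not alike, and this touches every result below. DEX+TNF libraries 1 and 2 held most NF-kB target genes at the level of PBS+TNF, and libraries 3 and 4 held them near the level of mice without TNF. The mean level of 32 NF-kB and TNF target genes was 5.01, 4.995, 1.96 and 2.67 log2 CPM in DEX+TNF 1 to 4, while PBS+TNF spanned 4.89 to 5.20, DEX+PBS 1.58 to 1.96 and PBS+PBS 1.57 to 1.94. The group therefore falls into 2 pairs of libraries for these genes, and its mean describes neither pair. The labels give the 4 libraries the same treatment, and a block of the TNF response in 2 mice cannot be told apart from a TNF dose that had no effect in them or from a mix-up of samples. Sgk1, a kinase induced by glucocorticoids, was higher in every library with DEX than in any without it, at 24.8, 32.4, 33.6 and 115 CPM in DEX+TNF 1 to 4 and 17.6 to 48.5 CPM in DEX+PBS, where the PBS+PBS range was 1.11 to 3.64 CPM and the PBS+TNF range 4.82 to 7.95 CPM. Because of the 2 pairs, the overall counts, the list medians and many gene values are also given without DEX+TNF 3 and 4 and without DEX+TNF 1 and 2. DEX+TNF 1 and 2 were the most alike of all replicate pairs (chi-square of their counts 8.78 per degree of freedom, 23.5 to 344 for the others), and the values without DEX+TNF 3 and 4 rest on this close pair.

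Library totals were 7286307 to 15832111 counts. The summed level of 10 Paneth cell markers was 411000 to 614000 CPM, and markers of stromal, endothelial and red blood cells summed to at most 1.27 CPM. DEX+TNF 4 stood apart in markers of other cells: 12 enterocyte markers summed to 850 CPM there and to 38.9 to 210 CPM in every other library, 6 tuft cell markers to 1060 CPM against 0.247 to 218 CPM, and 3.33% of its counts came from mitochondrial genes against 0.489% to 1.67%. PBS+PBS 4 and PBS+TNF 1 had the lowest TMM factors, 0.503 and 0.418, and 54.5% and 59.3% of their counts in alpha-defensin genes. The part of these differences in the results below was not tested. In sorted bulk RNA, fewer cells of a type and less RNA per cell cannot be told apart.

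No gene passed the interaction test of edgeR after adjustment (0 of 11809 genes, 0%), and the smallest adjusted p was 0.102. Without DEX+TNF 1 and 2 the same test called 458 genes, 147 above 0 and 311 below 0, and without DEX+TNF 3 and 4 it called 0. The pairs were picked by NF-kB target levels in these same data, so such counts describe the split and do not test it. At an unadjusted p under 0.05, 196 genes lay below 0 (1.66%) and 446 lay above 0 (3.78%), or 1093 and 997 without DEX+TNF 1 and 2 and 395 and 279 without DEX+TNF 3 and 4. DESeq2 called 9 genes (0.0762%), which are Plekhs1, Tmem252, S100a11 and Gpsm2 below 0 and Crebrf, Zfp667, Bambi, Fn3k and 9430091E24Rik above 0. limma-voom called 0 genes, with 296 below 0 and 346 above 0 at an unadjusted p under 0.05. The median interaction over all genes tested was 0.047, and 45.7% of the values were below 0.

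The 2 TNF effects that make up the interaction differed in the number of genes called. Without DEX, 844 genes were higher with TNF (7.15%) and 632 were lower (5.35%) by edgeR at an adjusted p under 0.05. After DEX, 38 genes were higher (0.322%) and 2 were lower (0.0169%), Noct among them. The 38 higher genes included Nfkbia, Tnfaip3, Tnip1, Icam1, Ccl20, Cxcl16, Nos2, Socs3, Rel, Relb and Nfkb2, most of them targets or subunits of NF-kB. The counts are not a test of the difference between the effects and moved with the DEX+TNF libraries used: after DEX, 1286 genes were called without DEX+TNF 3 and 4, 362 without DEX+TNF 3 alone, 230.0 without DEX+TNF 4 alone, and 0 without DEX+TNF 1 and 2 or without any 1 of the other 14 libraries. With upper-quartile scaling in place of TMM, the calls without DEX were 747 higher and 865 lower.

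TNF-responsive genes were picked by the pooled TNF effect, the mean of both effects, which is orthogonal to the interaction in this balanced design. It called 1085 genes higher with TNF (9.19%) and 681 lower (5.77%), or 935 higher and 944 lower with upper-quartile scaling. Of the 1085 genes raised by TNF, 943 (86.9%) had a smaller rise after DEX, with a median log2 effect of 1.39 without DEX and 0.872 after DEX. Of the 681 genes lowered by TNF, 618 (90.7%) had a smaller fall after DEX, with medians of -1.10 and -0.562. All DEX+TNF libraries lay below all PBS+TNF libraries in 185 of the raised genes (17.1%). They all lay above them in 148 of the lowered genes (21.7%). Most of the difference between the 2 effects went with the pair of libraries 3 and 4. That pair was picked from these data by its low NF-kB target levels, so this restates the split. In the fit without DEX+TNF 3 and 4, 623 of the raised and 493 of the lowered genes had the smaller effect after DEX. The median interaction was then -0.082 and 0.224. Without DEX+TNF 1 and 2, 1027 and 631 did, with medians of -1.22 and 0.743.

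Each TNF-responsive gene was then placed in a class by its interaction. A gene was blunted where the interaction opposed the TNF effect at an unadjusted p under 0.05, enhanced where it had the same sign at that p, and kept where the 95% interval of the interaction lay within 1 log2 unit of 0 in both directions. The classes held 269 blunted genes (113 raised and 156 lowered by TNF), 289 kept genes (117 and 172) and 1 enhanced gene, and 1207 genes were unresolved because the interval was too wide. Without DEX+TNF 3 and 4 the counts were 114 blunted, 973 kept and 134 enhanced, and without DEX+TNF 1 and 2 they were 500, 57 and 6. These counts rest on other genes, since the pooled effect then called 3214 and 894 genes. With libraries left out the groups are unequal, so the pooled effect is no longer orthogonal to the interaction. All DEX+TNF libraries lay on the unstimulated side of all PBS+TNF libraries in 160 of the 269 blunted genes and in 24 of the 289 kept genes, a comparison that also holds the effect of DEX itself.

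**Figure D1:**
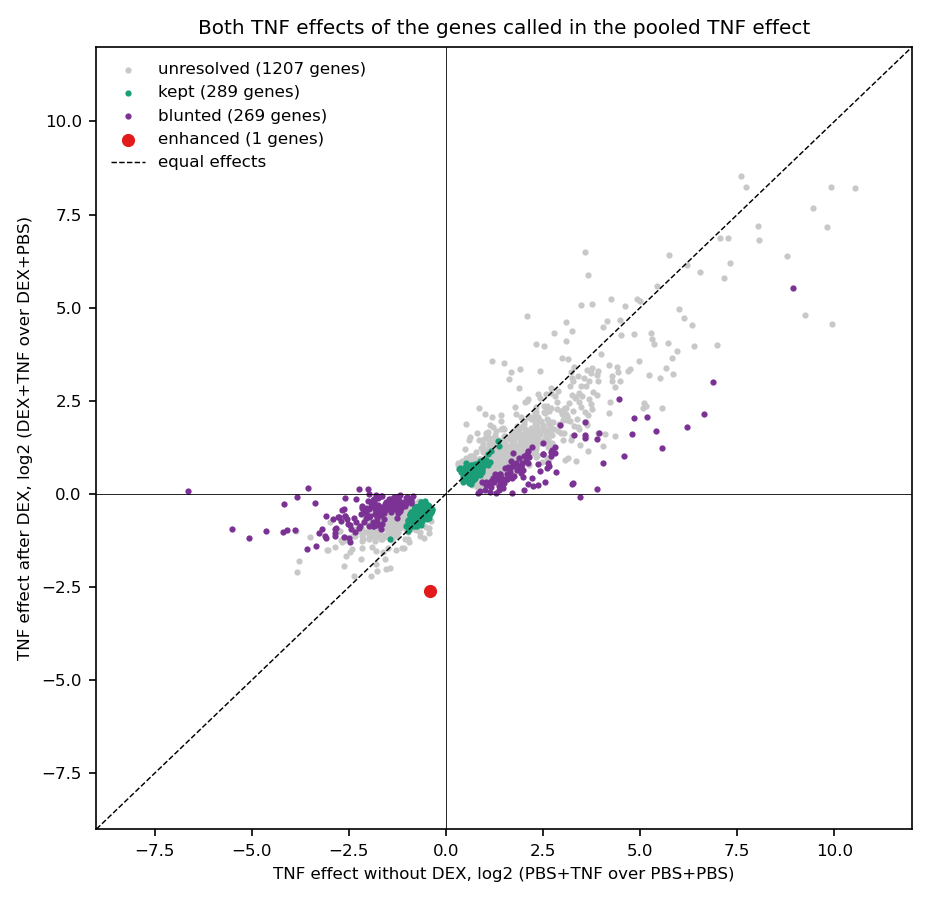
TNF effect without DEX (x axis, log2 of PBS+TNF over PBS+PBS) and after DEX (y axis, log2 of DEX+TNF over DEX+PBS) of the 1766 genes called in the pooled TNF effect, 1 point a gene, coloured by class. The dashed line marks equal effects. Among genes higher with TNF 943 of 1085 lie under the line, among genes lower with TNF 618 of 681 lie above it, and the 289 kept genes lie along it.

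NF-kB target genes were raised by TNF without DEX, and after DEX they were high in libraries 1 and 2 and near the unstimulated level in libraries 3 and 4, so that the interaction was not resolved. Of 35 listed NF-kB and TNF target genes 32 were tested, and 27 had an interaction below 0, with a median of -0.71 (all genes 0.047). The median TNF effect was 3.50 without DEX and 2.96 after DEX, and 25 members were called higher without DEX and 11 after it. At an unadjusted p under 0.05, 1 member lay below 0 (Nos2) and 1 above 0 (Cd83). In 5 of 32 all DEX+TNF libraries lay below all PBS+TNF libraries. That share was 2.91% over all genes and 17.1% over genes raised by TNF in the pooled effect, of which 86.9% had an interaction below 0. The median interaction was -0.021 without DEX+TNF 3 and 4 and -2.83 without DEX+TNF 1 and 2.

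Promoters of NF-kB and interferon genes are shown because the responses of these 2 groups differed among the DEX+TNF libraries, as given after the sequences. A RefSeq table of promoters (build GRCm38.p6, 300 bases, 250 before and 50 after the start) held 32851 promoters and matched 25 of the 32 tested NF-kB target genes and 7 of 10 tested guanylate-binding and immunity-related GTPases. Both strands were searched for the NF-kB consensus and the ISRE core, the element bound by interferon-activated factors, and the 2 motifs do not overlap in the promoters shown. The NF-kB consensus was in 20 of 30 promoters of NF-kB target genes (66.7%), in 2 of 8 of the GTPases (25.0%) and in 8.46% of all promoters. The ISRE core was in 7 of 8 promoters of the GTPases (87.5%), in 12 of 33 of antiviral genes (36.4%), in 3 of 30 of NF-kB target genes and in 3.44% of all promoters. A match is a description of the letters and not a proven site. The promoters run 5′ to 3′ on the strand of the gene, with matches to either motif in capitals.
Nfkbia, chr12:55492598-55492897, minus strand, NF-kB consensus: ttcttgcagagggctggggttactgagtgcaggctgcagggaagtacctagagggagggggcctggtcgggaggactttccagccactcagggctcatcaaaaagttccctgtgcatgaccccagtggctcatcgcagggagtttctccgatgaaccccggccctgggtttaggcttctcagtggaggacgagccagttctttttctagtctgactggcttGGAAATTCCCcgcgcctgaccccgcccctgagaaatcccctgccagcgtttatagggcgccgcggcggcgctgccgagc
Cxcl10, chr5:92348840-92349139, minus strand, ISRE core and then NF-kB consensus, of which the last 2 matches overlap: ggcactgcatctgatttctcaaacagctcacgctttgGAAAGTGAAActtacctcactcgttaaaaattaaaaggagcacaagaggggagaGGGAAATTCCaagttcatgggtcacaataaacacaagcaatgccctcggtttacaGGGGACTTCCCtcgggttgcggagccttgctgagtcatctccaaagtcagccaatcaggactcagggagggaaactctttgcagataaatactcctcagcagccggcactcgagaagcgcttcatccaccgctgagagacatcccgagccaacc
Gbp2, chr3:142620413-142620712, plus strand, ISRE core and then NF-kB consensus: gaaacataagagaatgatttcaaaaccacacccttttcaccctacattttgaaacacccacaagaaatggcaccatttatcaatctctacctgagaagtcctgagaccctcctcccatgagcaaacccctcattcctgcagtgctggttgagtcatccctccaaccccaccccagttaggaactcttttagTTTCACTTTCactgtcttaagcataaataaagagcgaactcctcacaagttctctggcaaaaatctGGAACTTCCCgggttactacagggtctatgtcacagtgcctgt
Irgm2, chr11:58214727-58215026, plus strand, ISRE core: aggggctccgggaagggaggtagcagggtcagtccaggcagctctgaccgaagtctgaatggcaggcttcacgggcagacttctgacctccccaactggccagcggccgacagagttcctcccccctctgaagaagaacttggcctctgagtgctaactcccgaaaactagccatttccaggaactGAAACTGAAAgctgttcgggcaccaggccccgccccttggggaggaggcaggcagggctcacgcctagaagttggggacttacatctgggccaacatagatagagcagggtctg

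Nfkbia encodes IkB-alpha, which holds NF-kB in the cytoplasm and is itself an NF-kB target (ENSMUSG00000021025, GRCm39 chromosome 12, 55535332 to 55539432, minus strand). It was at 15.6, 18.8, 22.7 and 24.1 CPM in PBS+PBS 1 to 4, 277, 337, 311 and 308 CPM in PBS+TNF, 19.5, 22.7, 27.3 and 26.1 CPM in DEX+PBS and 330.0, 382, 28.3 and 41.0 CPM in DEX+TNF. DEX+TNF 1 and 2 were as high as PBS+TNF or higher, and DEX+TNF 3 and 4 were just above the range of DEX+PBS. The interaction was -0.89 (SE 0.80, 95% interval -2.57 to 0.78, edgeR adjusted p = 1), -0.027 without DEX+TNF 3 and 4 and -3.40 without DEX+TNF 1 and 2.

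Tnfaip3, which encodes the ubiquitin-editing NF-kB inhibitor A20, had 115, 109.6, 2.25 and 7.38 CPM in the DEX+TNF libraries, where the PBS+TNF range was 59.0 to 86.0 CPM and the DEX+PBS range 0.687 to 4.13 CPM. Its interaction was 0.42 (SE 1.13) and changed sign with the libraries used (1.36 without DEX+TNF 3 and 4, -3.15 without DEX+TNF 1 and 2). The 10 tested feedback inhibitors of NF-kB showed the same 2 pairs of libraries. As a share of the mean list response without DEX, DEX+TNF 1 to 4 reached 98.4%, 108%, -1.25% and 29.3%. The median interaction of these 10 genes was -0.61, and 0 had an unadjusted p under 0.05. It was 0.14 without DEX+TNF 3 and 4 and -2.42 without DEX+TNF 1 and 2.

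The chemokine genes split likewise. Ccl20, which attracts CCR6 lymphocytes and dendritic cells, had 36.9, 25.4, 1.43 and 2.64 CPM in the DEX+TNF libraries and 16.2 to 28.5 CPM in PBS+TNF, with an interaction of 0.16 (SE 1.21). The T cell chemokine Cxcl10, an NF-kB and interferon target, was at 26.1, 33.0, 0 and 0.150 CPM in DEX+TNF, 36.4, 41.7, 32.6 and 59.0 CPM in PBS+TNF and at most 0.251 CPM in the libraries without TNF. The adhesion molecule Icam1 was at 116, 114, 0.102 and 1.40 CPM in DEX+TNF against 52.2 to 127 CPM in PBS+TNF. For Cxcl10 and Icam1, DEX+TNF 3 and 4 thus lay at or near 0, while libraries 1 and 2 lay within the PBS+TNF range for Icam1 and around its lower end for Cxcl10. Fitted fold changes of genes at 0 in most libraries without TNF depend on the prior count and are not given. Of 20 listed chemokines 11 were tested, and their median interaction was -0.34, -0.13 without DEX+TNF 3 and 4 and -2.72 without DEX+TNF 1 and 2.

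**Figure D2:**
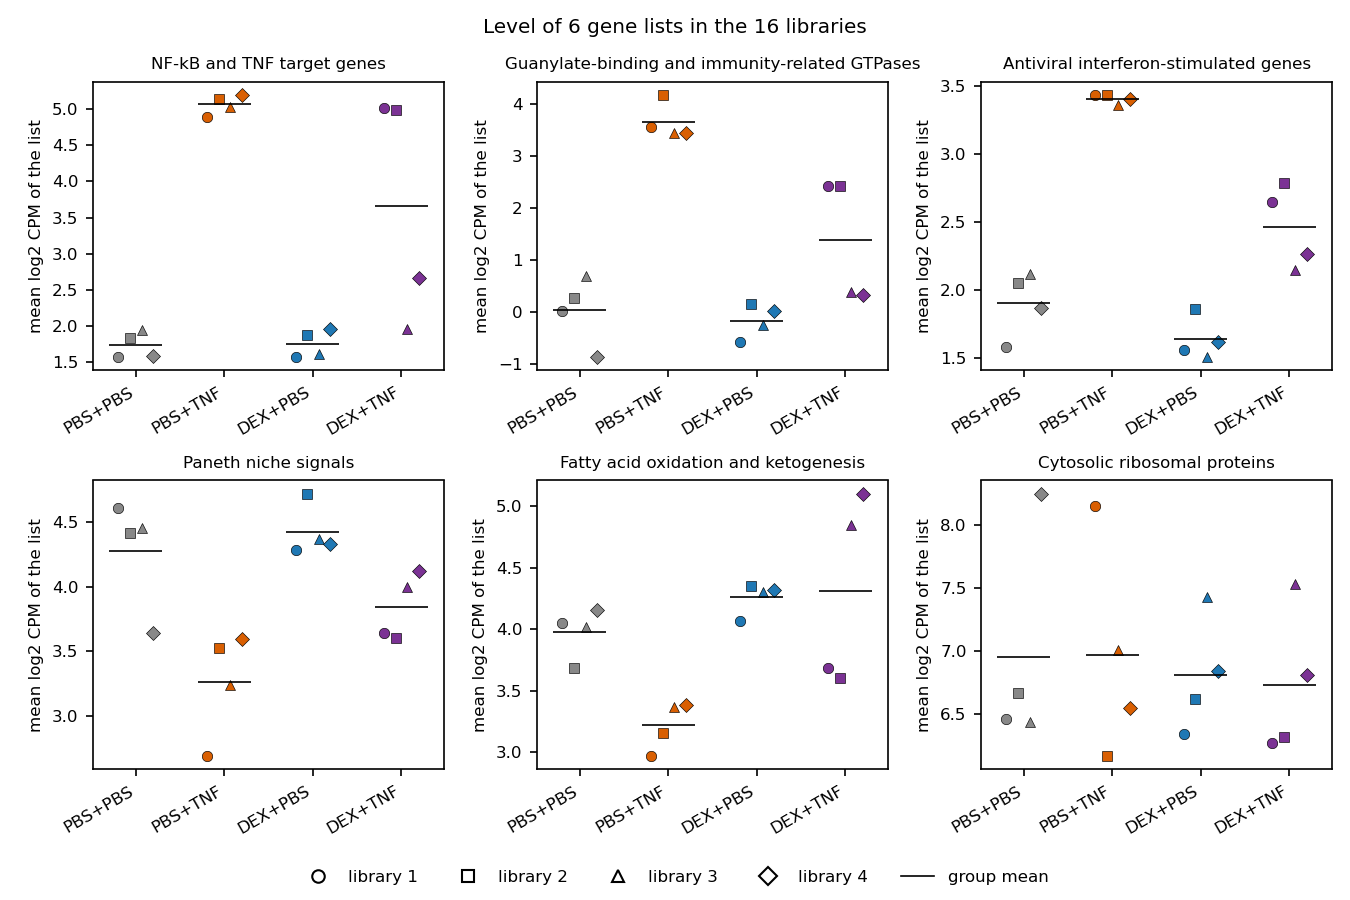
Level of 6 gene lists (mean log2 CPM of the tested members, y axis) in the 4 groups (x axis), 1 point a library with the library number as its shape and a bar at the group mean. For NF-kB targets DEX+TNF 1 and 2 sit at 5.01 and 4.995, within the PBS+TNF range of 4.89 to 5.20. For GTPases and antiviral genes all 4 DEX+TNF libraries sit below all PBS+TNF libraries, a comparison that also holds the effect of DEX itself.

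For antiviral genes and interferon-induced GTPases, DEX+TNF 1 and 2 also lay below PBS+TNF. Here and for the genes below, a comparison of DEX+TNF with PBS+TNF levels also holds the effect of DEX itself. Of 18 listed guanylate-binding and immunity-related GTPases, which attack membranes around intracellular pathogens, 10 were tested. In 10 of these 10 the 4 DEX+TNF libraries lay below the 4 PBS+TNF libraries. That share was 2.91% over all genes tested and 17.1% over genes raised by TNF in the pooled effect. The list level was 2.43, 2.42, 0.398 and 0.342 log2 CPM in DEX+TNF 1 to 4, 3.44 to 4.18 in PBS+TNF and -0.567 to 0.151 in DEX+PBS, so that the 4 libraries reached 71.6%, 71.3%, 15.4% and 13.8% of the mean response without DEX. The median TNF effect was 3.49 without DEX and 1.61 after DEX, and the median interaction was -1.58. It was -0.98 without DEX+TNF 3 and 4, -2.78 without DEX+TNF 1 and 2, and -1.98 to -1.25 with any single library left out. At an unadjusted p under 0.05, 2 members (Irgm2 and Gbp6) lay below 0, as did 1.66% of all genes and 113 of the 1085 genes raised by TNF.

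Gbp2 (ENSMUSG00000028270, GRCm39 chromosome 3, 142326349 to 142343779, plus strand) was at 126, 119, 62.4 and 61.8 CPM in PBS+TNF 1 to 4 and 28.3, 37.7, 0.919 and 2.00 CPM in DEX+TNF, where the DEX+PBS range was 0.121 to 0.784 CPM and the PBS+PBS range 0 to 3.58 CPM. Its highest DEX+TNF library lay below its lowest PBS+TNF library, but the interaction of -1.05 (SE 1.44, 95% interval -4.09 to 2.01) was not resolved, and it was -0.088 without DEX+TNF 3 and 4. Irgm2, an immunity-related GTPase, was at 45.7, 55.5, 35.9 and 42.8 CPM in PBS+TNF and 17.8, 25.6, 4.70 and 6.48 CPM in DEX+TNF, where the DEX+PBS range was 1.34 to 5.25 CPM and the PBS+PBS range 1.26 to 5.499 CPM. The interaction of Irgm2 was -1.64 (SE 0.70, unadjusted p = 0.0308, adjusted p = 0.884), -0.97 without DEX+TNF 3 and 4 and -2.92 without DEX+TNF 1 and 2. For both genes, DEX+TNF 1 and 2 lay between the groups and libraries 3 and 4 close to DEX+PBS. Irgm2 overlaps Igtp on the same strand in the annotation, so reads could be split between them.

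Among antiviral interferon-stimulated genes, 35 of 42 were tested and 31 had an interaction below 0 (45.7% of all genes and 86.9% of genes raised by TNF). At an unadjusted p under 0.05, 4 of them lay below 0 (Ifitm3, Usp18, Parp9 and Rtp4). So did 1.66% of all genes and 113 of the 1085 genes raised by TNF. The median of the antiviral genes was -0.53, -0.31 without DEX+TNF 3 and 4 and -0.83 without DEX+TNF 1 and 2. In 11 of the 35 genes the DEX+TNF libraries all lay below the PBS+TNF libraries (17.1% of genes raised by TNF). Without TNF the list level was 1.51 to 1.86 log2 CPM in DEX+PBS and 1.58 to 2.12 in PBS+PBS. DEX+TNF 1 to 4 reached 67.0%, 76.4%, 33.9% and 41.7% of the mean list response without DEX. Libraries 1 and 2 were thus lower, and libraries 3 and 4 higher, in that share than for NF-kB targets. The factors of this pathway, with interferon receptors, STAT and IRF genes, gave 94.6%, 103%, 10.4% and 15.0% over 18 tested members, and their median interaction was -0.44 (-0.0044 without DEX+TNF 3 and 4 and -0.80 without DEX+TNF 1 and 2), with 2 members below 0 at an unadjusted p under 0.05, Irf8 among them (-0.66, SE 0.31).

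Ifitm3, which blocks the entry of enveloped viruses, was at 25.4, 51.1, 45.9 and 37.3 CPM in PBS+PBS 1 to 4, 108, 124, 82.3 and 112 CPM in PBS+TNF, 45.3, 54.8, 62.3 and 40.1 CPM in DEX+PBS and 81.3, 76.7, 42.6 and 50.2 CPM in DEX+TNF. All 4 DEX+TNF libraries lay below all PBS+TNF libraries, and 2 of them lay within the DEX+PBS range. Its TNF effect was 1.41 without DEX (adjusted p = 0.00289) and 0.31 after DEX (adjusted p = 0.775), with an interaction of -1.10 (SE 0.37, unadjusted p = 0.00784, adjusted p = 0.753), -0.77 without DEX+TNF 3 and 4 and -1.55 without DEX+TNF 1 and 2. Irf1, an interferon regulatory factor that NF-kB also raises, was at 107 to 120.1 CPM in PBS+TNF and 91.3, 101, 25.2 and 22.9 CPM in DEX+TNF. Its interaction of -0.67 turned to 0.013 without DEX+TNF 3 and 4.

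Genes of MHC class I antigen presentation split by library as the NF-kB genes did. Of 22 listed genes 21 were tested and 20 had an interaction below 0 (45.7% of all genes and 86.9% of genes raised by TNF). Their median was -0.56, and 0 had an unadjusted p under 0.05. The median was -0.027 without DEX+TNF 3 and 4 and -1.30 without DEX+TNF 1 and 2. DEX+TNF 1 and 2 reached 88.4% and 101% of the mean response without DEX and libraries 3 and 4 reached 14.4% and 3.07%. The peptide transporter gene Tap1 had 27.8, 38.8, 7.04 and 9.32 CPM in the DEX+TNF libraries, 21.0 to 49.0 CPM in PBS+TNF and 3.32 to 9.02 CPM in DEX+PBS. Its interaction was -0.66 (SE 0.64) and 0.024 without DEX+TNF 3 and 4. Several class I genes are close copies of each other, and reads may be split among them. The 7 class II genes had a median interaction of -0.51 (-1.0 without DEX+TNF 3 and 4 and -0.22 without DEX+TNF 1 and 2) with 0 called by either TNF effect.

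**Figure D3:**
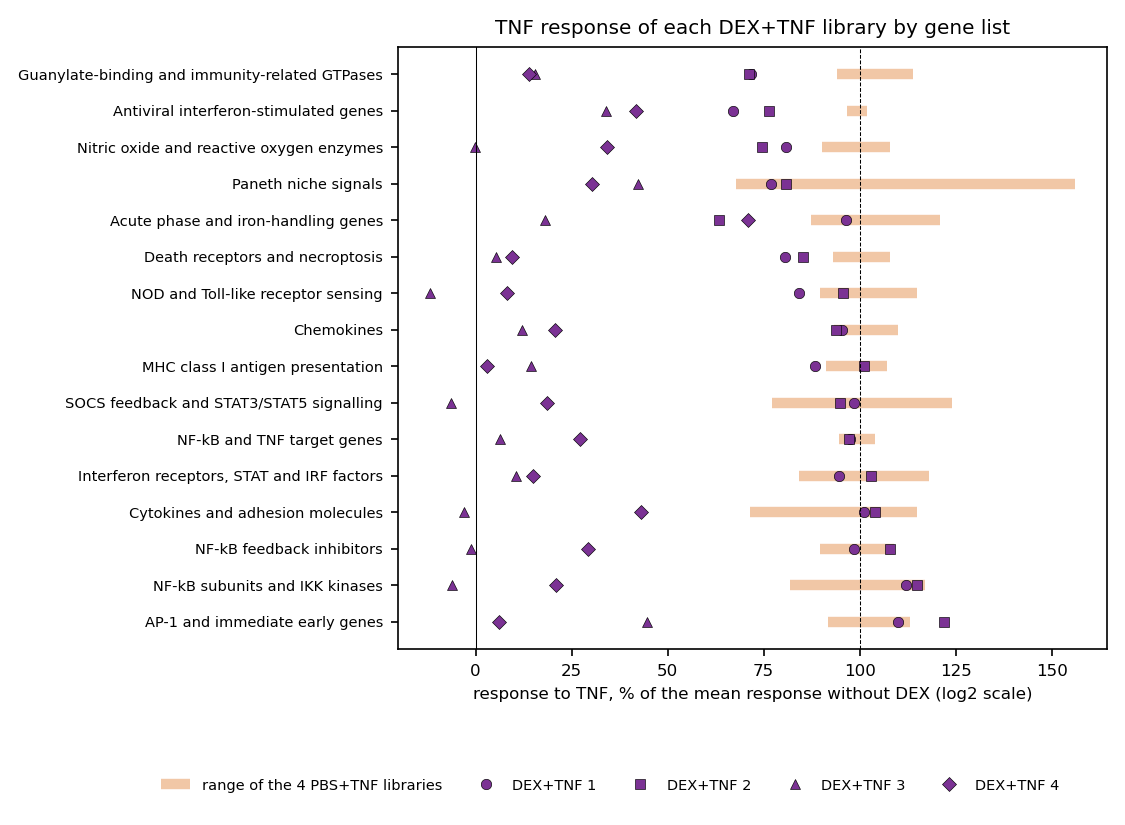
TNF response of each DEX+TNF library (points) as a percent of the mean response without DEX (x axis, from mean log2 CPM of a list), for the 16 lists whose mean response without DEX was at least 1 log2 unit (y axis), with the range of the PBS+TNF libraries as a band. Libraries 3 and 4 sit between -11.9% and 71.0%, and libraries 1 and 2 are at 71.6% and 71.3% for GTPases but 97.6% and 97.1% for NF-kB targets.

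Enzymes that make nitric oxide and reactive oxygen reached less of their response in all 4 DEX+TNF libraries. Of 17 listed genes 12 were tested, 7 were called higher with TNF without DEX and 2 after DEX, and DEX+TNF 1 to 4 reached 80.9%, 74.5%, -0.0603% and 34.2% of the mean list response without DEX (PBS+TNF libraries 90.2% to 108%), with a median interaction of -0.73, -0.47 without DEX+TNF 3 and 4 and -1.40 without DEX+TNF 1 and 2. Nos2, the inducible nitric oxide synthase (ENSMUSG00000020826, GRCm39 chromosome 11, 78811613 to 78851080, plus strand), was at 0.428, 0.447, 1.12 and 0 CPM in PBS+PBS 1 to 4, 233, 238, 181 and 466 CPM in PBS+TNF, 0, 0.784, 1.15 and 2.60 CPM in DEX+PBS and 103, 106, 0.306 and 20.2 CPM in DEX+TNF. All 4 DEX+TNF libraries lay below all PBS+TNF libraries, and library 3 lay within the DEX+PBS range. The TNF effect was called in both arms (edgeR adjusted p = 0.000976 without DEX and 0.0491 after DEX), and the interaction was -3.40 (SE 1.54, unadjusted p = 0.0385, adjusted p = 0.884). Duoxa2, the maturation factor of the hydrogen peroxide producing oxidase DUOX2, was at 128, 74.5, 82.8 and 119.5 CPM in PBS+TNF and 30.4, 32.4, 1.02 and 2.69 CPM in DEX+TNF. Nos2 was the only tested gene of this list with an unadjusted interaction p under 0.05, so Duoxa2 did not pass it.

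Among glutathione and antioxidant genes, many of them targets of the transcription factor NRF2, the values had both signs. Of 30 listed genes 26 were tested, 3 lay below 0 (Gpx2, Gclc and Srxn1) and 2 above 0 (Cat and Gclm) at an unadjusted p under 0.05, and the median was -0.20, -0.52 without DEX+TNF 3 and 4 and -0.064 without DEX+TNF 1 and 2. Gpx2, a glutathione peroxidase of the gut epithelium (ENSMUSG00000042808, GRCm39 chromosome 12, 76839107 to 76842326, minus strand), was at 84.1, 134, 84.3 and 185 CPM in PBS+PBS 1 to 4, 765, 563, 459 and 491 CPM in PBS+TNF, 98.8, 96.8, 179 and 113 CPM in DEX+PBS and 212, 233, 121 and 88.0 CPM in DEX+TNF. All 4 DEX+TNF libraries lay below the PBS+TNF libraries, and libraries 3 and 4 lay within or below the DEX+PBS range. The TNF effect was 2.23 without DEX and 0.42 after DEX, with an interaction of -1.80 (SE 0.48, unadjusted p = 0.00174, adjusted p = 0.727). It kept its sign in every alternative run, with -1.36 without DEX+TNF 3 and 4, -2.46 without DEX+TNF 1 and 2 and -2.06 to -1.56 with single libraries left out.

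Gclc and Gclm encode the catalytic and the modifier subunit of glutamate-cysteine ligase, the first enzyme of glutathione synthesis, and their interactions had opposite signs. Gclc was at 28.0, 31.7, 32.8 and 24.7 CPM in PBS+PBS 1 to 4, 177, 241, 164 and 186 CPM in PBS+TNF, 25.5, 31.5, 26.2 and 22.4 CPM in DEX+PBS and 84.3, 92.4, 27.0 and 28.9 CPM in DEX+TNF. Its libraries with DEX and TNF all lay below those with TNF alone, and libraries 3 and 4 lay within the DEX+PBS range. The interaction of Gclc was -1.57 (SE 0.47, unadjusted p = 0.0039, adjusted p = 0.735) and -0.97 without DEX+TNF 3 and 4. Gclm was lower with TNF without DEX (adjusted p = 0.00427), at 8.48 to 13.1 CPM in PBS+TNF against 19.9 to 24.1 CPM in PBS+PBS, and stood at 15.1, 18.4, 19.4 and 23.04 CPM in DEX+TNF 1 to 4 and 16.8 to 22.8 CPM in DEX+PBS. Its interaction was 0.84 (SE 0.27, unadjusted p = 0.00708). Cat, which encodes catalase, had 18.4 to 25.0 CPM in PBS+TNF and 29.8 to 44.6 CPM in DEX+TNF, without overlap, and an interaction of 0.91 (SE 0.26).

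Several genes of STAT3 signalling and cell death were also lower in all DEX+TNF libraries than in PBS+TNF. Socs3, the feedback inhibitor of STAT3 signalling, was at 5.57, 8.43, 11.5 and 4.02 CPM in PBS+PBS 1 to 4, 178, 183, 109 and 147 CPM in PBS+TNF, 1.94, 5.85, 3.21 and 3.62 CPM in DEX+PBS and 43.9, 50.2, 9.19 and 5.44 CPM in DEX+TNF. DEX+TNF 1 and 2 reached a lower level than any PBS+TNF library, and libraries 3 and 4 lay near the levels without TNF. That comparison also holds the effect of DEX itself, as mean Socs3 was 3.65 CPM in DEX+PBS and 7.39 CPM in PBS+PBS. The interaction of Socs3 was -1.50 (SE 0.78, unadjusted p = 0.0711), and -0.71 without DEX+TNF 3 and 4. Of 19 tested genes of this pathway Socs1 (-3.52, SE 1.01) and the kinase Pim1 (-1.01, SE 0.47) lay below 0 at an unadjusted p under 0.05. Over the list, 13 members lay below 0 and 6 above 0. The list median was -0.20, 0.28 without DEX+TNF 3 and 4 and -0.70 without DEX+TNF 1 and 2. DEX+TNF 1 to 4 reached 98.5%, 95%, -6.51% and 18.7% of the mean list response without DEX. In 3 of 19 all DEX+TNF libraries lay below all PBS+TNF libraries, against 17.1% of genes raised by TNF. Cebpd, a transcription factor of the acute phase response that glucocorticoids can also induce, was at 34.9, 29.2, 27.6 and 33.0 CPM in PBS+TNF and 13.2, 20.7, 1.74 and 7.83 CPM in DEX+TNF, with an interaction of -1.92 (SE 0.68, unadjusted p = 0.0118), -1.29 without DEX+TNF 3 and 4 and -3.07 without DEX+TNF 1 and 2. The 12 genes of death receptor and necroptosis signalling, all tested, had values below 0 in 12 of 12, with a median interaction of -0.52. Values below 0 were found in 45.7% of all genes and in 86.9% of genes raised by TNF. The median of these 12 genes was -0.19 without DEX+TNF 3 and 4 and -1.21 without DEX+TNF 1 and 2. DEX+TNF 1 to 4 reached 80.6%, 85.3%, 5.29% and 9.48% of their mean response without DEX. Ripk3 (-1.20, SE 0.46) and Ripk1 (-0.85, SE 0.38), kinases of the necrosome, lay below 0 at an unadjusted p under 0.05. So did 1.66% of all genes and 113 of the 1085 genes raised by TNF. Ripk3 was at 11.04 to 14.7 CPM in PBS+TNF and 6.45, 5.498, 3.78 and 7.98 CPM in DEX+TNF 1 to 4.

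The genes with the smallest interaction p below 0, among genes with a group mean of at least 5 CPM, were Plekhs1, Tmem252, S100a11, Gpsm2, Slfn2, Lpar6, Mfsd2a and Pstpip2. With DEX+TNF 3 and 4 left out, the interaction of these 8 genes was -3.91 to -1.08. S100a11, a calcium-binding protein, was at 6.94, 7.21, 7.26 and 10.1 CPM in PBS+PBS 1 to 4, 49.7, 52.5, 47.0 and 54.8 CPM in PBS+TNF, 7.89, 10.1, 10.9 and 10.8 CPM in DEX+PBS and 28.7, 25.1, 9.49 and 16.4 CPM in DEX+TNF. The DEX+TNF libraries 1 and 2 reached about the middle between DEX+PBS and PBS+TNF, and all 4 lay below every PBS+TNF library. The interaction was -1.70 (SE 0.38, unadjusted p = 0.000313, edgeR adjusted p = 0.582), and its adjusted p over the alternatives was 0.00203 to 1.

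Plekhs1 was at 4.05, 9.22, 6.75 and 6.49 CPM in PBS+TNF 1 to 4 and 2.58, 3.15, 1.12 and 1.30 CPM in DEX+TNF, from 0.126 to 0.171 CPM in PBS+PBS and 0.422 to 1.09 CPM in DEX+PBS, with the lowest p below 0 (-3.73, SE 0.69, edgeR adjusted p = 0.107). Slfn2, a member of the interferon-responsive Schlafen family, was at 5.97, 3.86, 6.33 and 8.72 CPM in PBS+TNF and 0.968, 0.566, 0.204 and 0.299 CPM in DEX+TNF, and at most 0.204 CPM without TNF. Slfn2 was thus low in all 4 DEX+TNF libraries, 1 and 2 included. Gpsm2, which orients the mitotic spindle, was at 37.4 to 41.5 CPM in PBS+TNF against 20.9 to 25.7 CPM in PBS+PBS, and at 19.1 to 23.9 CPM in DEX+TNF against 22.3 to 36.7 CPM in DEX+PBS. Its log2 TNF effect was 0.75 without DEX and -0.37 after DEX, with an interaction of -1.12 (SE 0.26). The interaction was -3.58 for Tmem252, -1.29 for the lysophosphatidic acid receptor Lpar6, -3.36 for the lysophospholipid transporter Mfsd2a and -1.57 for the membrane-bending protein Pstpip2. Mean Tmem252 was 0.533 CPM in PBS+PBS and 1.87 CPM in DEX+PBS. It was at 28.9, 9.65, 7.10 and 7.73 CPM in PBS+TNF 1 to 4, and its interaction was -2.88 without PBS+TNF 1. Mfsd2a, with means of 1.11 CPM in PBS+PBS and 2.46 CPM in DEX+PBS, was not called in the pooled TNF effect (edgeR adjusted p = 0.217). Lpar6 lies inside Rb1 on the other strand, and the use of strand in counting is not stated.

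**Figure D4:**
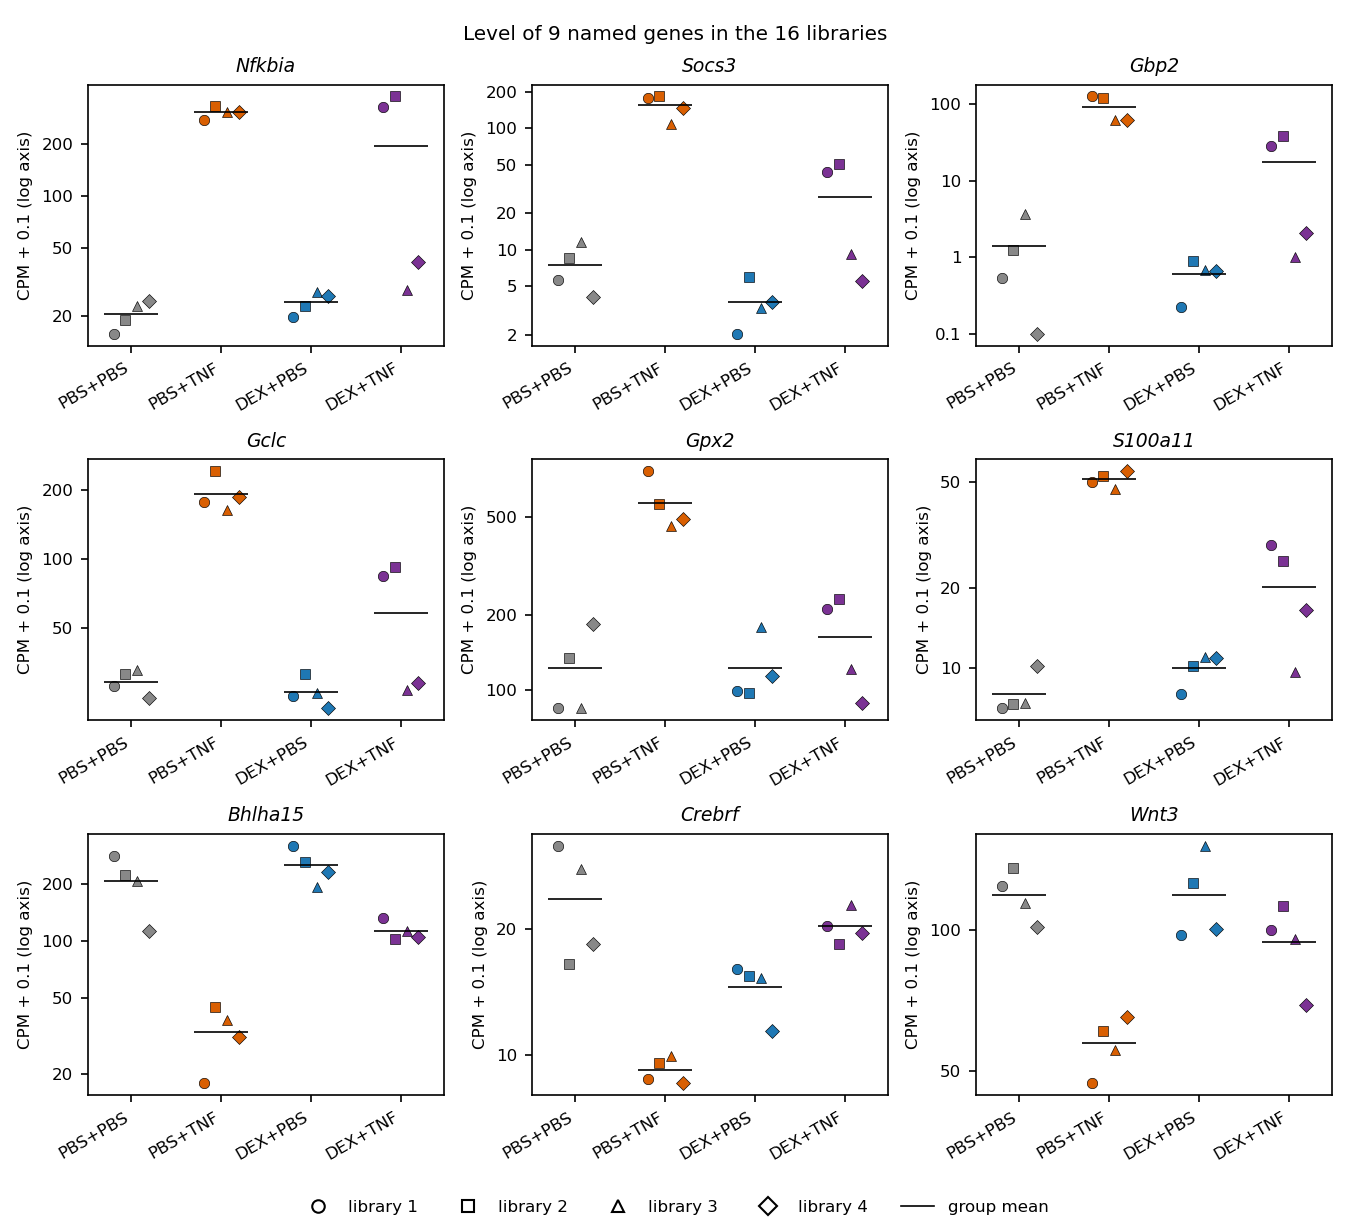
Level of 9 genes (CPM + 0.1, log axis) in the 4 groups, 1 point a library with the library number as its shape and a bar at the group mean. Nfkbia separates DEX+TNF 1 and 2 (330.0 and 382 CPM) from 3 and 4 (28.3 and 41.0 CPM), while Bhlha15 and Crebrf hold all 4 DEX+TNF libraries together above PBS+TNF.

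Of the 446 genes above 0 at an unadjusted p under 0.05, 156 were called lower with TNF in the pooled effect. The 8 with the smallest p at a group mean of at least 5 CPM were Crebrf, Zfp667, Bambi, Fn3k, Gprin3, H2bc21, 2010007H06Rik and Gm32742. Crebrf, a regulator of CREB3 factors and the stress response of the endoplasmic reticulum (ENSMUSG00000048249, GRCm39 chromosome 17, 26934559 to 26995609, plus strand), had the lowest interaction p of all genes. It was at 31.5, 16.3, 27.7 and 18.3 CPM in PBS+PBS 1 to 4, 8.67, 9.47, 9.84 and 8.47 CPM in PBS+TNF, 15.9, 15.3, 15.1 and 11.3 CPM in DEX+PBS and 20.2, 18.4, 22.8 and 19.5 CPM in DEX+TNF. TNF lowered it without DEX (-1.36, adjusted p = 0.00116), whereas after DEX every DEX+TNF library lay above every DEX+PBS library (0.49, adjusted p = 0.41). The interaction was 1.85 (SE 0.30, 95% interval 1.22 to 2.48, edgeR adjusted p = 0.102) and did not rest on a pair of libraries (1.79 without DEX+TNF 3 and 4, 1.91 without 1 and 2). Its adjusted p was 8.7e-05 to 0.297 over the alternatives and was under 0.05 in 3 of them (DESeq2, without PBS+PBS 2 and without DEX+TNF 1 and 2).

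Zfp667, a zinc finger gene, was at 2.31, 4.88, 2.88 and 3.02 CPM in PBS+TNF 1 to 4 and 14.2, 8.17, 13.2 and 14.9 CPM in DEX+TNF, where the PBS+PBS range was 11.7 to 25.3 CPM and the DEX+PBS range 10.3 to 13.4 CPM. DEX+TNF lay around the DEX+PBS range and PBS+TNF far below PBS+PBS. The TNF effect of Zfp667 was -2.24 without DEX (adjusted p = 0.000471) and 0.14 after DEX, and the difference between the effects was 2.38 (SE 0.40, edgeR adjusted p = 0.102). Bambi, a decoy receptor that dampens TGF-beta and BMP signals, was at 289.9, 126, 112 and 258 CPM in PBS+PBS, 25.6, 23.1, 20.3 and 7.13 CPM in PBS+TNF, 116, 116, 237 and 99.98 CPM in DEX+PBS and 69.0, 60.6, 228 and 121 CPM in DEX+TNF. Libraries 1 and 2 of DEX+TNF lay between PBS+TNF and DEX+PBS, and libraries 3 and 4 within the DEX+PBS range. The interaction of Bambi was 3.12 (SE 0.66, unadjusted p = 0.000225), 2.24 without DEX+TNF 3 and 4 and 3.66 without 1 and 2. Fn3k, a kinase that repairs glycated proteins, had 3.70 over all libraries and 1.80 without DEX+TNF 3 and 4. The values were 1.66 for Gprin3, 2.23 for the histone gene H2bc21, 1.70 for 2010007H06Rik and 1.71 for Gm32742. The gene 9430091E24Rik, which DESeq2 called, had 4.50 (SE 1.07) at levels near the floor. Its means were 1.165 CPM in PBS+PBS, 0.111 CPM in PBS+TNF, 0.298 CPM in DEX+PBS and 0.658 CPM in DEX+TNF. It overlaps Pdpr on the other strand.

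Some transcription factors of secretory cells were lower with TNF without DEX and had interactions above 0. Bhlha15, also called Mist1, drives the secretory apparatus of gland cells (ENSMUSG00000052271, GRCm39 chromosome 5, 144127086 to 144131259, plus strand). It was at 279, 223, 207 and 113 CPM in PBS+PBS 1 to 4, 17.9, 44.9, 38.3 and 31.4 CPM in PBS+TNF, 318, 261, 193 and 231 CPM in DEX+PBS and 133, 103, 113 and 105 CPM in DEX+TNF. The 4 DEX+TNF libraries were close together, above all PBS+TNF and below all DEX+PBS libraries. The TNF effect was -2.63 without DEX (adjusted p = 0.000207) and -1.14 after DEX (adjusted p = 0.118), and the interaction was 1.49 (SE 0.41, unadjusted p = 0.00221, adjusted p = 0.729). It was 1.54 without DEX+TNF 3 and 4 and 1.42 without 1 and 2. Gfi1, needed for the Paneth and goblet cell fate, was at 1.35, 5.37, 4.29 and 5.05 CPM in PBS+TNF and 8.95, 8.81, 18.4 and 7.88 CPM in DEX+TNF, with 1.68 (SE 0.49), and Foxa2 had 1.02 (SE 0.40). Over the 22 secretory and regional factors the median was 0.10 (0.18 without DEX+TNF 3 and 4 and 0.021 without DEX+TNF 1 and 2). At an unadjusted p under 0.05, 4 lay above 0 (Bhlha15, Gfi1, Foxa2 and Hnf4g) and 0 below 0. Above 0 at that p were 3.78% of all genes and 156 of the 681 genes lowered by TNF in the pooled effect. In 3 of 22 the DEX+TNF libraries all lay above the PBS+TNF libraries, against 3.47% of all genes and 21.7% of those lowered genes.

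Signals of the stem cell niche and Wnt targets had members on both sides of 0. Of 13 listed niche genes 7 were tested, 5 lay above 0 and 2 below 0, with a list median of 0.46. Wnt3, Egf and Dll4 lay above 0 at an unadjusted p under 0.05. So did 3.78% of all genes and 156 of the 681 genes lowered by TNF in the pooled effect. Wnt3, the Wnt ligand that Paneth cells provide to stem cells, was at 124, 136, 115 and 102 CPM in PBS+PBS 1 to 4, 47.0, 60.9, 55.4 and 65.2 CPM in PBS+TNF, 97.7, 127, 152 and 101 CPM in DEX+PBS and 100.3, 113, 95.6 and 69.0 CPM in DEX+TNF. All 4 DEX+TNF libraries lay above all PBS+TNF libraries, with libraries 1 and 2 the highest of them. Its interaction was 0.72 (SE 0.30, unadjusted p = 0.027) and 0.90 without DEX+TNF 3 and 4. The Notch ligand Dll4 was at 1.54 to 6.49 CPM in PBS+TNF and 7.74, 5.26, 24.4 and 16.1 CPM in DEX+TNF, so that its value of 1.31 (SE 0.60) went with libraries 3 and 4. The median of the niche list was -0.034 without DEX+TNF 3 and 4 and 0.51 without DEX+TNF 1 and 2. Of 18 tested Wnt target genes 11 lay above 0 and 7 below 0, where 45.7% of all genes lay below 0. Rnf43, Lgr5, Nkd1 and Ascl2 lay above 0 at an unadjusted p under 0.05, against 3.78% of all genes and 156 of the 681 lowered genes. The median of the Wnt targets was 0.34, 0.17 without DEX+TNF 3 and 4 and 0.49 without DEX+TNF 1 and 2. It was 0.12 to 0.43 with single libraries left out. Summed stem cell markers, Lgr5 and Ascl2 among them, were at 2350 CPM in DEX+TNF 4 and 569 to 659 CPM in the other DEX+TNF libraries, and their part in these values was not tested.

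Fatty acid oxidation and ketogenesis genes had the highest median interaction of the 43 lists. Of 32 listed genes 29 were tested, with a median of 0.73 (all genes 0.047). Of these 29, 26 had an interaction above 0, and 11 did so at an unadjusted p under 0.05 (3.78% of all genes). Among the 681 genes lowered by TNF in the pooled effect, which held 3 members of this list, 90.7% lay above 0 and 156 did so at that p. Over all genes, 45.7% lay below 0. In 8 of 29 all DEX+TNF libraries lay above all PBS+TNF libraries, against 3.47% of all genes and 21.7% of genes lowered by TNF. The median TNF effect was -0.59 without DEX, where 6 members were called lower, and 0.22 after DEX, where 0 were called. The list level was 3.68, 3.60, 4.85 and 5.10 log2 CPM in DEX+TNF 1 to 4, while PBS+TNF spanned 2.97 to 3.38, DEX+PBS 4.07 to 4.36 and PBS+PBS 3.69 to 4.15. For this list, DEX+TNF 1 and 2 lay below DEX+PBS, as PBS+TNF lay below PBS+PBS, and libraries 3 and 4 lay above every other library. The median was 0.16 without DEX+TNF 3 and 4, 1.17 without DEX+TNF 1 and 2 and 0.57 without DEX+TNF 4 alone.

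Cpt1a, which carries fatty acids into mitochondria (ENSMUSG00000024900, GRCm39 chromosome 19, 3371853 to 3437996, plus strand), was at 81.8, 67.8, 87.6 and 64.3 CPM in PBS+PBS 1 to 4, 19.8, 30.02, 27.8 and 31.3 CPM in PBS+TNF, 64.7, 108, 61.7 and 80.1 CPM in DEX+PBS and 34.9, 35.5, 119 and 114 CPM in DEX+TNF. For Cpt1a, DEX+TNF 1 and 2 lay just above the PBS+TNF range, and libraries 3 and 4 above every DEX+PBS library. Its interaction was 1.41 (SE 0.50, unadjusted p = 0.012, adjusted p = 0.827). Acaa2, the thiolase of the last step of beta-oxidation, was at 14.0 to 23.6 CPM in PBS+TNF and 18.6, 22.6, 75.2 and 57.7 CPM in DEX+TNF, with 1.46 (SE 0.51), and Acadm, the medium-chain acyl-CoA dehydrogenase, had 0.85 (SE 0.35). Acot1 and Acot2, thioesterases that are close copies of each other and may share reads, also lay above 0. Enterocytes express many of these genes, and the 12 enterocyte markers summed to 42.1, 38.9, 134 and 850 CPM in DEX+TNF 1 to 4, with 103 to 140 CPM across DEX+PBS. Their part in the result was not tested.

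Glucocorticoid receptor targets were described for the effect of TNF on them after DEX. Of 30 listed genes 28 were tested, with a median interaction of -0.23, 1 below 0 (Cebpd) and 2 above 0 (Pdk4 and Tsc22d3) at an unadjusted p under 0.05. Tsc22d3, which encodes GILZ, an anti-inflammatory glucocorticoid target, was at 10.1 to 16.8 CPM in PBS+PBS and 4.82 to 7.13 CPM in PBS+TNF, and at 21.0, 20.3, 27.0 and 24.5 CPM in DEX+PBS 1 to 4 and 11.4, 10.7, 24.9 and 49.4 CPM in DEX+TNF. DEX+TNF 1 and 2 lay below all DEX+PBS libraries, as PBS+TNF lay below PBS+PBS, and library 4 was the highest of all. Its interaction of 1.12 (SE 0.53, unadjusted p = 0.0478) was -0.0032 without DEX+TNF 3 and 4. Pdk4, a kinase that shifts cells from glucose to fat use, followed the same order at 3.95, 4.37, 26.5 and 41.3 CPM in DEX+TNF against 7.11 to 23.3 CPM in DEX+PBS (2.35, SE 1.04; 0.15 without DEX+TNF 3 and 4). Fkbp5, a chaperone of the receptor, was at 43.2, 44.5, 44.6 and 135 CPM in DEX+TNF and 47.3 to 79.5 CPM in DEX+PBS, with an interaction of -0.62 (SE 0.59), -1.23 without DEX+TNF 3 and 4, -0.20 without DEX+TNF 1 and 2 and -1.21 without DEX+TNF 4 alone. Angptl4, a lipase inhibitor that glucocorticoids and fasting induce, was at 1.82, 2.11, 7.67 and 9.43 CPM in DEX+PBS and 1.77, 0.566, 10 and 38.2 CPM in DEX+TNF, and its interaction of 2.28 (SE 1.56) was -1.16 without DEX+TNF 3 and 4. Nr3c1, which encodes the glucocorticoid receptor, was at 9.30 to 19.6 CPM in PBS+PBS, 8.999 to 11.1 CPM in PBS+TNF, 8.86 to 13.2 CPM across DEX+PBS and 10.8 to 19.2 CPM across DEX+TNF, with an interaction of 0.94 (SE 0.34, unadjusted p = 0.0135). In 11 of the 28 genes all DEX+TNF libraries lay above all PBS+TNF libraries, a comparison that holds the effect of DEX itself as well as the interaction.

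The kept class held genes that TNF raised and genes that it lowered. It bounds the interaction and not the share of the response that remained. For a TNF effect near 1 log2 unit, as in Bmp2 below, it does not exclude the loss of most of the response. With a margin of 0.58 only 9 genes were kept, and without DEX+TNF 1 and 2 only 57 at the margin of 1. Among the 289 kept genes, Noct, a rhythmically expressed phosphatase also called nocturnin, had a TNF effect of -1.45 without DEX and -1.20 after DEX (interaction 0.25, 95% interval -0.49 to 0.98). The p53 inhibitor Mdm4, named after its values were seen, had 1.35 and 1.41 (interval -0.76 to 0.89). Bmp2, a ligand of the BMP pathway also named after its values were seen, rose by 1.17 and 1.16 (pooled adjusted p = 0.00247, interval -0.97 to 0.94). Noct, Mdm4 and Bmp2 had TNF effects of nearly equal size in both arms. The single enhanced gene was Sycn, a zymogen granule protein, with -0.40 without DEX and -2.61 after DEX (interaction -2.21, SE 0.95, unadjusted p = 0.0317), chosen after its value was seen.

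Smaller groups with single members past an unadjusted p of 0.05 complete the account. Among 17 tested NOD and Toll-like receptor genes, 14 lay below 0 (45.7% of all genes and 86.9% of genes raised by TNF). Their median was -0.47, -0.0092 without DEX+TNF 3 and 4 and -1.24 without DEX+TNF 1 and 2. The lipopolysaccharide receptor Tlr4 (-2.97, SE 1.15) and the adaptor Myd88 (-0.97, SE 0.43) passed that p. So did 1.66% of all genes and 113 of the 1085 genes raised by TNF, below 0. Myd88 was at 40.7, 41.1, 38.4 and 33.97 CPM in PBS+TNF 1 to 4 and 27.6, 34.1, 12.3 and 9.72 CPM in DEX+TNF. In glycolysis, hexokinase Hk2 had -1.89 (SE 0.66) and the lactate exporter Slc16a3 -1.78 (SE 0.84), while Pdk1, which restrains pyruvate oxidation, had 0.92 (SE 0.35). Hk2 was at 13.3 to 29.4 CPM in PBS+PBS, 95.2, 138, 71.5 and 146 CPM in PBS+TNF, 21.3 to 46.4 CPM in DEX+PBS and 85.1, 89.9, 13.4 and 30.7 CPM in DEX+TNF. DEX+TNF 1 and 2 lay within the PBS+TNF range for Hk2, library 4 within the DEX+PBS range and library 3 below it. In the BCL2 family, the death effector Bak1 had -0.84 (SE 0.39) and the BH3-only gene Bmf 1.36 (SE 0.50), on opposite sides of 0.

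Several pathways had a median interaction near that of all genes. The median was -0.011 for 79 cytosolic ribosomal protein genes, -0.10 for 77 nuclear genes of oxidative phosphorylation, -0.093 for 30 genes of the unfolded protein response, 0.069 for 21 autophagy genes and -0.030 for 20 of 28 alpha-defensin genes, and 0 members of these lists had an unadjusted p under 0.05. The ribosomal protein median was -0.58 without DEX+TNF 3 and 4 and 0.35 without DEX+TNF 1 and 2, and that of oxidative phosphorylation was -0.66 and 0.27. That of the unfolded protein response was 0.24 and -0.49, and that of the alpha-defensins 0.021 and -0.20. The medians also moved with single libraries. Over single libraries left out they ranged from -0.69 to 0.54 for the ribosomal proteins and from -0.41 to 0.91 for the alpha-defensins, with the lower ends reached without PBS+PBS 4 and the upper ends without PBS+TNF 1. For alpha-defensin genes, which are near-identical copies, the counting of shared reads is not stated. AP-1 and immediate early genes were not near the median of all genes and split by library. Their median interaction was -0.43, 0.0076 without DEX+TNF 3 and 4 and -1.08 without DEX+TNF 1 and 2. The median TNF effect was 1.12 without DEX and 1.14 after DEX, but 10 of 15 tested members were called higher without DEX and 1 after it. DEX+TNF 1 to 4 reached 110%, 122%, 44.5% and 6.08% of the mean response without DEX. The plot of medians by list places these groups side by side.

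**Figure D5:**
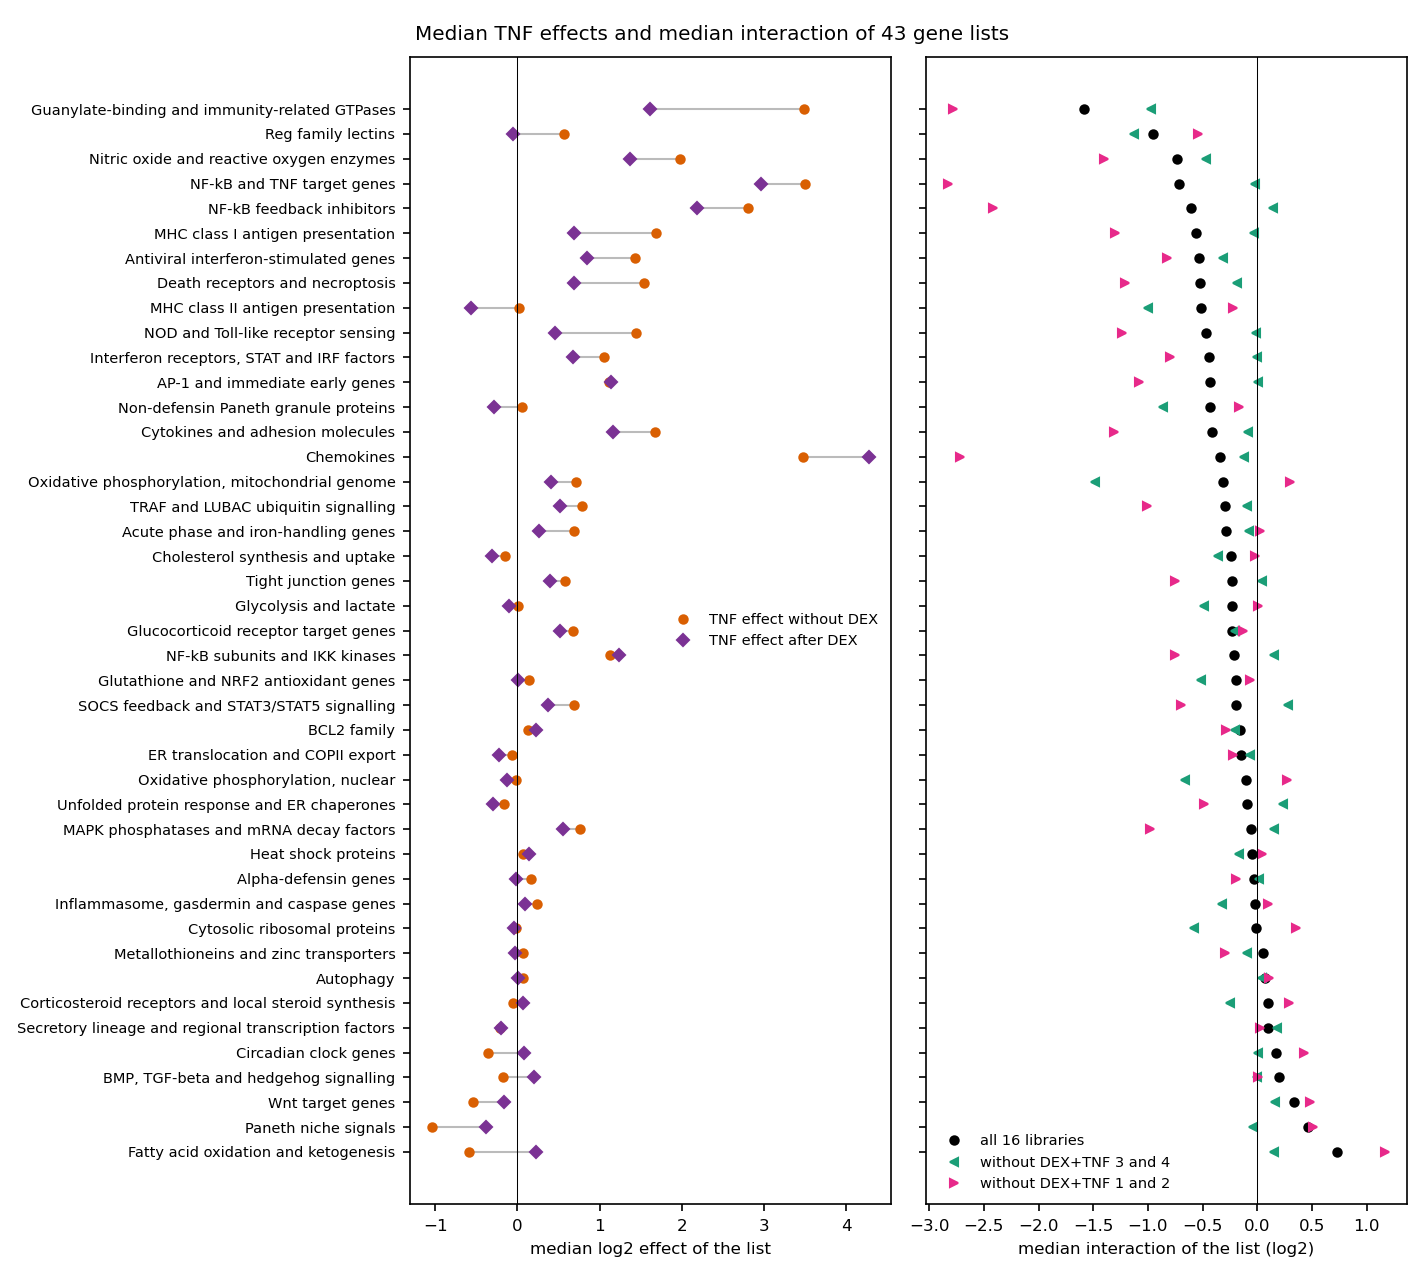
Median log2 TNF effect without DEX and after DEX (left) and median interaction (right, log2) of the tested members of 43 gene lists (y axis), the latter with all 16 libraries, without DEX+TNF 3 and 4 and without DEX+TNF 1 and 2. GTPases have the lowest median (-1.58) and fatty acid oxidation the highest (0.73), and the NF-kB target median moves from -0.71 to -0.021 without DEX+TNF 3 and 4.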

How the data were processed

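RNA from sorted mouse Paneth cells was sequenced in 16 libraries (TruSeq Stranded mRNA). Per the submitters' processing notes, the authors used FastQC 0.12, STAR 2.7.10a and DESeq2 on build mm39. The authors deposited 1 table of raw read counts per gene, keyed by Ensembl identifier. The counter, its treatment of multi-mapping reads and its use of strand are not given in the sources used here, and 31 of 73 named genes overlap a gene on the other strand.

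Symbols and coordinates came from the GENCODE annotation of GRCm39, the same build. Counts were fitted in edgeR 4.0.16 (quasi-likelihood test, robust, TMM factors, filterByExpr by group, 4 group means, all 16 libraries), with Benjamini-Hochberg adjustment over the 11809 genes tested. A gene that passed the filter only through its high group had to differ, so counts over tested list members are descriptions. SE are Wald errors and intervals cover 95%. Level plots used log2 CPM with a prior count of 2. Alternatives were DESeq2 1.42.0, limma-voom 3.58.1, other scalings and filters, a replicate block, and left-out libraries. The code was tested on simulated data. Totals of 7286307 to 15832111 counts bound the precision of low genes, by counting error.

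The comparison, the 43 gene lists and the named genes were chosen with earlier results of these data known. Named were the 8 genes with the smallest interaction p in each direction (group mean of at least 5 CPM), the member of each list with the smallest p (some left out of the text), fixed genes of both pathways and genes called by DESeq2. Other genes named were chosen after their values were seen. Replicate numbers were not taken as pairs. Some genes that these rules name are not reported here.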

Additional observations from a re-analysis of the deposited data

Results flagged for a closer look

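Over 452 groups of 4 libraries from 113 results, 22 held a library far from the other 3 (its gap to the nearest was over 0.829 of the group's range). Chance flags about 1 in 20 such groups. Values are log2 CPM, with the range of the other 3 libraries in parentheses.

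In DEX+TNF, library 4 was apart for Fkbp5 at 7.08 (5.44 to 5.48) and for the circadian clock genes at 3.08 (2.94 to 2.95). In PBS+TNF, library 1 was apart for Irf1 at 6.74 (6.89 to 6.91), for Psmb8 at 5.61 (4.94 to 4.99), for the mitochondrial gene mt-Nd6 at 4.05 (0.47 to 0.778), for BMP, TGF-beta and hedgehog genes at 2.39 (2.84 to 2.87) and for the circadian clock genes at 2.23 (2.78 to 2.86). Library 2 of that group was apart for the GTPases at 4.18 (3.44 to 3.56) and for Ier5 at 3.21 (3.53 to 3.55), and library 4 for Sdha at 6.46 (6.14 to 6.19).

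In PBS+PBS, library 4 was apart for ribosomal protein genes at 8.24 (6.44 to 6.67), MAPK phosphatases and mRNA decay factors at 2.34 (3.00 to 3.13), S100a11 at 3.35 (2.82 to 2.89), Reg3g at 9.87 (10.1 in the others) and Cxcl10 at -1.33 (-2.77 in the others, all without a count). Library 3 was apart for Pdk4 at 2.75 (0.93 to 1.02) and library 1 for 9430091E24Rik at 0.96 (0.0573 to 0.204). In DEX+PBS, library 3 was apart for NF-kB feedback inhibitors at 2.58 (3.09 to 3.15), and library 4 for MHC class I genes at 4.23 (3.57 to 3.65), corticosteroid receptor and steroid synthesis genes at 5.26 (4.31 to 4.45), Ripk3 at 2.50 (2.24 to 2.28) and Crebrf at 3.52 (3.93 to 4.00).

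In 5 named genes all TNF libraries lay on one side of the control mean without DEX and on the other side after DEX. From mean log2 CPM, which shrinks low genes, the TNF effects without and after DEX were 0.755 and -0.337 for Gpsm2 (difference -1.09), -1.30 and 0.489 for Crebrf (1.79), -0.701 and 0.904 for Gm32742 (1.61), -2.34 and 1.05 for 9430091E24Rik (3.39), and 0.308 and -0.448 for Cyp51 (-0.756), an enzyme of cholesterol synthesis. By edgeR, none of these differences passed the adjusted test, while DESeq2 called those of Gpsm2, Crebrf and 9430091E24Rik.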

How the results depend on the processing

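Most counts moved with the DEX+TNF libraries used. The counts below are genes called in the interaction (main 0), in the TNF effect after DEX (40), in the TNF effect without DEX (1476) and in the pooled effect (1766), and genes in the blunted (269), kept (289) and enhanced (1) classes. DESeq2 gave 9 interaction calls, 259 after DEX, 469 kept and 3 enhanced. limma-voom gave 0 after DEX and 0 enhanced, and 0 interaction calls with 296 and 346 genes below and above 0 at an unadjusted p under 0.05. Without the low-count filter 6 were called after DEX and 102 kept, with a mean of at least 5 CPM 0 were enhanced, and with a kept margin of 0.58 only 9 were kept. Without DEX+TNF 3 and 4, 1286 were called after DEX and 3214 pooled, with 114 blunted, 973 kept and 134 enhanced. Without DEX+TNF 1 and 2, 458 were called in the interaction, 0 after DEX and 894 pooled, with 500 blunted, 57 kept and 6 enhanced. Over single libraries left out, the interaction calls were 0 to 1 (Crebrf, without PBS+PBS 2, adjusted p 0.0393 against 8.7e-05 to 0.297 over all alternatives), calls without DEX 916 to 1698, after DEX 0 to 362, pooled 1320.0 to 2234, blunted 180.0 to 430.0, kept 119 to 539 and enhanced 0 to 16. The lowest counts without DEX (916) and of blunted genes (180.0) came without PBS+PBS 1, the most blunted (430.0) without PBS+PBS 4, the fewest kept (119) without DEX+TNF 1, the most kept (539) without DEX+TNF 3 and the most enhanced (16) without DEX+TNF 4. Signs reversed for Tnfaip3 (-0.91 by limma-voom, -3.15 without DEX+TNF 1 and 2, -0.14 to 0.82 over single libraries), Ccl20 (-1.15 by limma-voom, -0.41 with the replicate block, -2.83 without DEX+TNF 1 and 2, -0.59 to 0.54 over single libraries), Irf1 (0.013), Tap1 (0.024), Tsc22d3 (-0.0032) and Angptl4 (-1.16), the last 4 without DEX+TNF 3 and 4, and over single libraries for Cd74 (-1.33 to 0.19) and Defa41 (-1.12 to 0.42). The cause was not tested. The other 1899 comparisons of a named gene with an alternative kept their sign and side of the threshold, and 43 became calls. Medians of the main lists are given with each pair left out beside the lists. With the replicate block, 0 were called after DEX and 2 were enhanced. Of 24 correlations between libraries with the same number (-0.365 to 0.504), 12 were over 0.1, among them all 6 between libraries numbered 2 (0.153 to 0.412), and 7 of 16 libraries correlated best with their own number. Since not every pair was over 0.1 and no label ties the numbers to a batch, the numbers are taken as names only. Counts bound how firmly genes under a few CPM can be read.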

Other observations

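Lists not described above had few members past an unadjusted p of 0.05. The median interaction was -0.23 for 16 tight junction genes, 0.056 for 13 metallothionein and zinc transporter genes, -0.049 for 12 heat shock genes and -0.15 for 27 genes of translocation and COPII export, with 0 members past that p in each of these lists. The tight junction median was 0.042 without DEX+TNF 3 and 4 and -0.75 without DEX+TNF 1 and 2. Among 20 BMP, TGF-beta and hedgehog genes, Bambi, Smad6, the ligand Ihh (1.94, SE 0.89) and its receptor Ptch1 (1.39, SE 0.66) lay above 0 at that p. So did 3.78% of all genes and 156 of the 681 genes lowered by TNF. Ihh was at 0.771, 0.543, 1.20 and 0.693 CPM in PBS+TNF 1 to 4 and 1.53, 0.243, 6.02 and 6.33 CPM in DEX+TNF, against 6.17 to 13.1 CPM in PBS+PBS and 5.38 to 13.4 CPM in DEX+PBS. The immediate early gene Fosb (3.13, SE 1.05) and the clock output gene Dbp (3.63, SE 1.83) also lay above 0 at that p, and the iron reductase gene Steap1 (-1.80, SE 0.85) lay below 0. The inflammasome sensor Nlrp6 (2.18, SE 0.98) measured 3.87, 1.86, 5.72 and 30.4 CPM across DEX+TNF 1 to 4, and its interaction was 0.70 without DEX+TNF 4, the library with the highest enterocyte and tuft cell markers, and 0.28 without DEX+TNF 3 and 4. These genes were chosen after their values were seen.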
